A study of Mus musculus with 69 samples.

Results

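The 10 genes described here are members of the circadian clock: Arntl, Npas2 and Clock, which encode its activators, Nr1d1 and Nr1d2, which encode the REV-ERB repressors, Dbp, an output factor, and Per1, Per2, Per3 and Ciart, which encode repressors of the activators. They were chosen by symbol, and each is 1 row in all 4 deposited tables, 10 of 52404 gene identifiers that the tables share. The clock is a feedback loop present in most cells. The Arntl protein (BMAL1) pairs with Clock or Npas2 and switches on the Per genes, Ciart, Nr1d1, Nr1d2 and Dbp through E-boxes; Per proteins and Ciart then act against that pair, and the REV-ERB proteins repress Arntl and Npas2. Across a day the RNA of Arntl and Npas2 therefore peaks at times when that of Dbp and Nr1d1 is low, and in the kidney the clock is known for daily changes in salt and water transport.

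RNA was sequenced from tubules dissected by hand from mouse kidneys, either cortical collecting duct (CCD) or proximal tubule of the first segment (PT-S1). All mice were wild-type C57BL/6 males, operated on when 7 weeks old and kept 1 per cage. They had UNx (unilateral nephrectomy, removal of 1 kidney) or a sham procedure, with dissection 24 h or 72 h afterwards; the labels give no other difference between groups. In PT-S1 there were 3 sham and 4 UNx animals at 24 h and 5 of each at 72 h; in CCD there were 4 sham and 3 UNx animals at 24 h and 4 of each at 72 h, with 69 libraries in all. These make 32 samples, each the tubules of 1 segment from 1 animal; whether PT-S1 and CCD came from the same animals is not stated, so the number of mice is not known here. The hour of the day at which each kidney was taken is not given in the sources used here, so its part in any difference below was not tested.

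Values are TPM, RNA abundance per length of transcript scaled to the same total in each library, and each animal's value is the mean of its libraries. TPM keeps no depth, so the depth is unknown. Differences are on the log2(TPM + 1) scale, which understates changes of low values. A median correlation under 0.92 with the rest of their table set 5 libraries apart: 2 of PT-S1 24 h sham (animals 1 and 3), 2 of PT-S1 72 h UNx (animals 1 and 2) and 1 of CCD 72 h sham (animal 1). Many results that rest on them are given with and without them. Values per animal hold all libraries unless stated otherwise. The summed level of 4 PT-S1 markers was between 6071 and 14300 TPM in PT-S1 animals and at most 59.0 TPM in CCD animals, and that of 4 principal cell markers was between 14316 and 57904 TPM in CCD and at most 112 TPM in PT-S1. In the tubules, which are bulk samples, fewer cells of a type and less RNA per cell cannot be told apart.

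Short promoter windows were searched for letters that the clock's own factors read. Sequence further upstream or within the genes was not searched, so a window without a match does not show that a gene lacks them. Windows of 250 bases before a transcription start (RefSeq, build GRCm38.p6, whereas the expression values were made on GRCm39) were found for 9 of the 10 genes, 13 windows in all, and none for Per2. Each was searched on both strands for the E-box CACGTG, its variant CACGTT, the D-box TTANGTAA read by Dbp, and TNGGTCA, a loose core of the element that REV-ERB and ROR proteins share. Of 32851 such windows in the table, 6.02% hold the E-box, 3.85% the variant, 2.06% the D-box and 9.19% the REV-ERB and ROR core. Ciart (chr3:95882229-95882478, minus strand) holds 3 E-boxes, and Per1 (chr11:69098699-69098948, plus strand) holds 1 in the first of its 2 windows. Nr1d1 (chr11:98775378-98775627, minus strand) holds the variant. Per3 (chr4:151044666-151044915, minus strand) holds 2 D-boxes and 1 REV-ERB and ROR core. Arntl (chr7:113207215-113207464, plus strand) holds 2 such cores, which its second, overlapping window shares. Dbp (chr7:45704997-45705246, plus strand), the gene with the widest difference below, is shown beside them; its window, like those of Npas2, Clock and Nr1d2, has none of these letters. Capitals mark the matches, 5′ to 3′ on the gene's own strand, and a match is a description and not a binding site.
Ciart: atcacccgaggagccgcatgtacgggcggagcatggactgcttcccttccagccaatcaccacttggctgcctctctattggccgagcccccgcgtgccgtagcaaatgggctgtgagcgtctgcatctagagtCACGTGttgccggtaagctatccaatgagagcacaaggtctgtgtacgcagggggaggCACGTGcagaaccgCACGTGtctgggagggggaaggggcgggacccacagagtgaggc
Per1: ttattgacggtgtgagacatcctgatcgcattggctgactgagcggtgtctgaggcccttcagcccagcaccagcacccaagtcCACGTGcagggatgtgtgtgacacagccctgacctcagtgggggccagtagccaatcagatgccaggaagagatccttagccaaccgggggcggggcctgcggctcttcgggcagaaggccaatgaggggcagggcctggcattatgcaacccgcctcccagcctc
Nr1d1: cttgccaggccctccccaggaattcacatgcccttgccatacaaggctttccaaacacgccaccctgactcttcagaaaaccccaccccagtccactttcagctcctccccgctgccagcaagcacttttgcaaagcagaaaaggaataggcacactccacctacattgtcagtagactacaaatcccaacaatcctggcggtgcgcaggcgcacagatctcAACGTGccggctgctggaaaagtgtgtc
Per3: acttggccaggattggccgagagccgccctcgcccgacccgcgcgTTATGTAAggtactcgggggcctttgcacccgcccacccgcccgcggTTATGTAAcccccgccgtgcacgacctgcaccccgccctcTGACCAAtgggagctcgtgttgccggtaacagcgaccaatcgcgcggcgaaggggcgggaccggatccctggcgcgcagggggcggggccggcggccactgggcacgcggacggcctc
Arntl: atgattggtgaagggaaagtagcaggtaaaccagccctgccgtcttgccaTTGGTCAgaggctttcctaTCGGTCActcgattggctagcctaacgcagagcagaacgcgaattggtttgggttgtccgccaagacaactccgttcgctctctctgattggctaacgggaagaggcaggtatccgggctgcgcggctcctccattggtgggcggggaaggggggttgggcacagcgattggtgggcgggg
Dbp: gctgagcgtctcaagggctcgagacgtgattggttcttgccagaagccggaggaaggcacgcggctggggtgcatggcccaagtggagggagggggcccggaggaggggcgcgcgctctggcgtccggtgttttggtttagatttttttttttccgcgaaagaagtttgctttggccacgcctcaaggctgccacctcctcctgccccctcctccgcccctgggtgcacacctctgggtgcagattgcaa

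In PT-S1, most of the clock genes lay far apart between sham animals of the 2 times, and in opposite directions. Arntl and Npas2 were higher at 72 h, and Dbp, Ciart, Per2 and Per3 were lower, in each case with no overlap between the 3 animals at 24 h and the 5 at 72 h. That is 6 of 10 genes. Npas2, 1 of the 6, and Per1 had means under 1 TPM over the animals of the 24 h table. They are counted among the 10 but are not part of the shares of all genes that follow. Of 11455 genes with a mean of at least 1 TPM in both tables, 13.9% had sham animals that did not overlap, and 1.97% did not overlap and also had means at least 1 apart on the log2(TPM + 1) scale, as all 6 of these genes did. The threshold of 1 was chosen after the values were seen. The times are in different tables, so the time and the table cannot be told apart and no test was made.

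Arntl (ENSMUSG00000055116, chromosome 7), whose protein is the obligate partner in the activating pair, stood at 1.92, 0.485 and 1.34 TPM in the 3 sham animals at 24 h. At 72 h it stood at 11.4, 8.02, 9.61, 6.79 and 8.21 TPM. All 5 later animals were above all 3 earlier ones, by 2.21 on the log2(TPM + 1) scale, which ranked 22 of 11455 genes by size. Npas2 (ENSMUSG00000026077, chromosome 1), which can take the place of Clock in the pair, was higher alongside it, with 1.12, 0.155 and 0.433 TPM at 24 h and 5.62, 6.6, 6.93, 3.73 and 4.75 TPM at 72 h. Its difference was 2.13; it has no rank because its mean at 24 h was under 1 TPM. Clock (ENSMUSG00000029238, chromosome 5), the third activator, had overlapping animals, with 11.2, 6.26 and 6.06 TPM at 24 h against 7.33, 7.22, 9.66, 6.84 and 6.46 TPM at 72 h, a difference of 0.10. Without its library of low correlation, sham animal 1 of 24 h had Arntl at 0.74, Npas2 at 0.3 and Clock at 5.2 TPM. Without both such libraries of this group the differences of Arntl, Npas2 and Clock were 2.34, 2.24 and 0.20.

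Dbp (ENSMUSG00000059824, chromosome 7), a D-box activator that is among the genes with the deepest daily swing, lay the other way. Its level was 144, 151 and 131 TPM in sham animals at 24 h and 10.9, 10.8, 9.02, 14.6 and 16.02 TPM at 72 h. The groups lay far apart, by -3.47 on the log2(TPM + 1) scale, the third in size of all genes ranked. By library the gap held too, with 80.0 to 181 TPM at 24 h and 5.93 to 18.7 TPM at 72 h. Exons of Dbp share 539 bases with Sphk2 on the opposite strand (GENCODE vM21), and the kit marks no strand. Sphk2 itself averaged 14.2 ± 1.76 TPM (SD, n = 3) at 24 h and 12.8 ± 0.960 TPM (SD, n = 5) at 72 h in these animals.

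Among the repressors, Ciart (ENSMUSG00000038550, chromosome 3) had the widest difference, -2.63, rank 15. It stood at 16.1, 13.975 and 12.5 TPM at 24 h and at 1.18, 0.775, 3.38, 0.823 and 1.6 TPM at 72 h. Per2 (ENSMUSG00000055866) was lower at 72 h too, with 14.5, 8.82 and 7.95 TPM at 24 h and 1.49, 1.69, 4.975, 2.16 and 1.61 TPM at 72 h, a difference of -1.69, rank 50; sham animal 3 of 72 h was well above the other 4. With every library taken singly Per2 overlapped between the times, while Arntl, Npas2, Dbp, Per3 and Ciart did not. Per3 (ENSMUSG00000028957, chromosome 4) stood at 6.62, 4.46 and 7.54 TPM against 1.05, 1.02, 1.52, 1.59 and 1.95 TPM, a difference of -1.52, rank 75. Per1 (ENSMUSG00000020893, chromosome 11), which also answers to hormones and feeding, was the lowest of the family, with 0.753, 1.45 and 1.96 TPM at 24 h and 0.46, 0.17, 2.42, 0.27 and 0.23 TPM at 72 h. Its animals overlapped through sham animal 3 of 72 h alone, and without that animal they did not. Without the libraries of low correlation the differences of Dbp, Ciart, Per2 and Per3 were -3.53, -2.83, -1.75 and -1.33.

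The REV-ERB genes were less far apart. Nr1d2 (ENSMUSG00000021775, chromosome 14) stood at 85.2, 31.7 and 31.96 TPM at 24 h and at 16.995, 24.5, 19.3, 13.7 and 18.2 TPM at 72 h. The 3 earlier means in TPM were all higher, but on the log2 average of the libraries the groups overlapped, with a difference of -0.91. Without the libraries of low correlation they did not overlap (-0.94), so that 7 of 10 genes were then apart, beside 19.3% of all genes. That share leaves out Npas2, 1 of the 7, and Per1, for their low means. Nr1d1 (ENSMUSG00000020889, chromosome 11), at 48.4, 37.9 and 37.1 TPM against 29.4, 24.4, 19.4, 40.8 and 37.01 TPM, overlapped, with a difference of -0.43. Exons of Nr1d1 share 263 bases with Thra on the opposite strand. Thra averaged 5.49 ± 1.71 TPM (SD, n = 3) at 24 h and 7.20 ± 1.28 TPM (SD, n = 5) at 72 h.

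**Figure D1:**
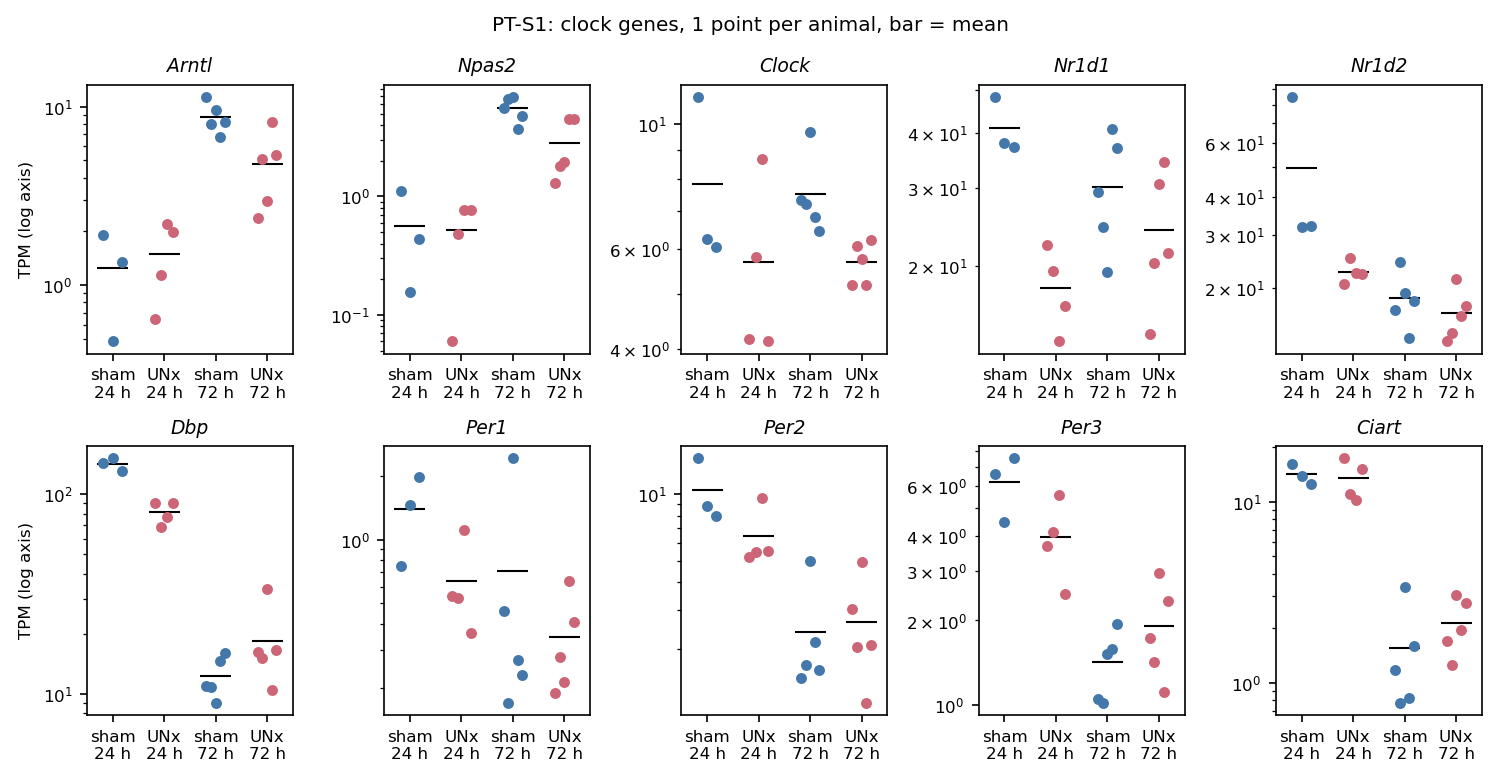
TPM of the 10 clock genes in PT-S1 on log axes, 1 point per animal (blue sham, red UNx), with the mean of each group as a bar. In sham animals Dbp lies at 131 TPM or more at 24 h and at 16.02 TPM or less at 72 h, while Arntl lies at 1.92 TPM or less at 24 h and at 6.79 TPM or more at 72 h.

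In CCD the sham animals did not show this. For 0 of 10 clock genes were the 4 sham animals at 24 h and the 4 at 72 h apart, where 12.2% of 13253 genes did not overlap and 0.43% did not overlap with means at least 1 apart. The widest difference was that of Dbp, 0.68, in the direction opposite to PT-S1. Arntl differed by -0.24 and Npas2 by -0.59. Leaving out a sham animal raised the count to at most 1 (Clock or Nr1d2). The difference between the segments was not tested, since both times and both segments are in separate tables. The PT-S1 count stayed between 5 and 7 under every alternative run.

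**Figure D2:**
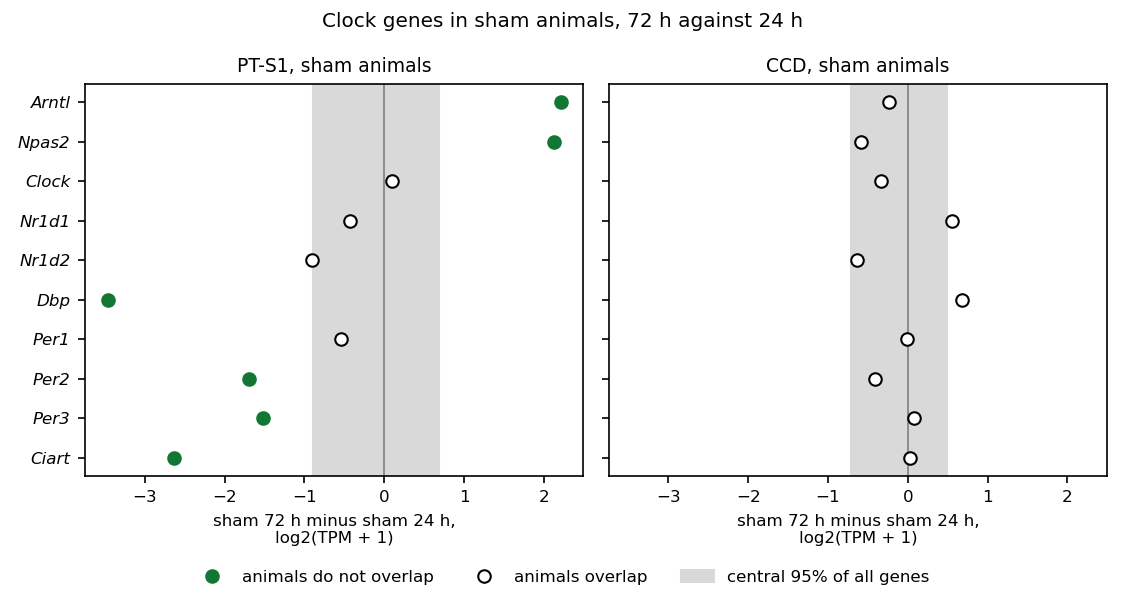
Difference of the mean log2(TPM + 1) between sham animals at 72 h and at 24 h (positive, higher at 72 h) in PT-S1 and CCD, filled where no animals overlap; the grey band holds the central 95% of all genes, from -0.89 to 0.68 in PT-S1 and from -0.71 to 0.49 in CCD. In PT-S1 the 6 filled points lie outside the band on both sides. In CCD no point is filled, and the open points of Dbp and Nr1d1 lie above the band.

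In CCD, sham animals of 1 group lay far from each other. At 72 h, sham animals 1 and 2 had Arntl at 16.3 and 19.4 TPM, Npas2 at 1.96 and 2.77 TPM and Dbp at 67.9 and 57.8 TPM. Sham animals 3 and 4 had Arntl at 41.3 and 40.4 TPM, Npas2 at 8.09 and 7.797 TPM and Dbp at 17.1 and 18.2 TPM. So where Arntl and Npas2 were high in an animal, Dbp was low. Sham animals 2 and 3 had 1 library each, and sham animal 1 had 2, of which 1 was of low correlation. Without that library, sham animal 1 stood at 23.3 TPM for Arntl, 2.95 TPM for Npas2 and 60.7 TPM for Dbp, still on the side of animal 2. At 24 h, sham animal 4 had the highest Dbp of its group, 56.7 TPM beside 24.4, 18.5 and 6.39 TPM, with the lowest Arntl, 24.8 TPM beside 33.5, 33.9 and 34.7 TPM, and the lowest Npas2, 4.45 TPM beside 7.195, 7.83 and 10.1 TPM. Over all 32 samples, as deviations from the means of their groups, Dbp and Arntl had a Pearson correlation of -0.60, Dbp and Nr1d1 of 0.58, and Dbp and Per3 of 0.58, the widest of all pairs of the 8 members tested in every table. Other pairs across the loop lay near 0, such as Arntl with Nr1d1 (-0.02) and with Nr1d2 (0.06), and Nr1d1 and Per2, of the same side, had -0.18. These are descriptions, and genes of 1 library share its depth and quality.

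To set both sides of the loop against each other, each animal was given the mean log2(TPM + 1) of Dbp, Nr1d1, Nr1d2, Per1, Per2, Per3 and Ciart (the Dbp side, 7 genes) minus that of Arntl, Npas2 and Clock (the Arntl side, 3 genes). In PT-S1 the value was 2.46, 2.86 and 2.49 in sham animals at 24 h, and -0.74, -0.70, -0.44, -0.24 and -0.26 at 72 h. All sham animals of PT-S1 were thus above 2 at 24 h and below 0 at 72 h. In sham CCD it was -0.42, -0.35, -0.95 and 0.59 at 24 h. At 72 h it was 0.91, 1.07, -0.51 and -0.89, so that this group held both signs. The SD over sham animals was 0.22 (n = 3) and 0.24 (n = 5) in PT-S1 and 0.64 and 0.99 (n = 4 each) in CCD at 24 h and 72 h. UNx animals of PT-S1 lay at 2.52, 2.02, 1.71 and 1.89 at 24 h, and at 0.41, 0.13, 0.93, -0.29 and 0.002 at 72 h. They overlapped the sham animals at both times, with means of 2.03 against 2.60 at 24 h and 0.24 against -0.48 at 72 h. Without the libraries of low correlation the sham animals at 24 h stood at 2.87, 2.86 and 2.56, all above the highest UNx animal (2.52), so that the overlap at 24 h rests on those libraries. At 72 h the groups overlapped without them too, with means of 0.21 and -0.48.

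**Figure D3:**
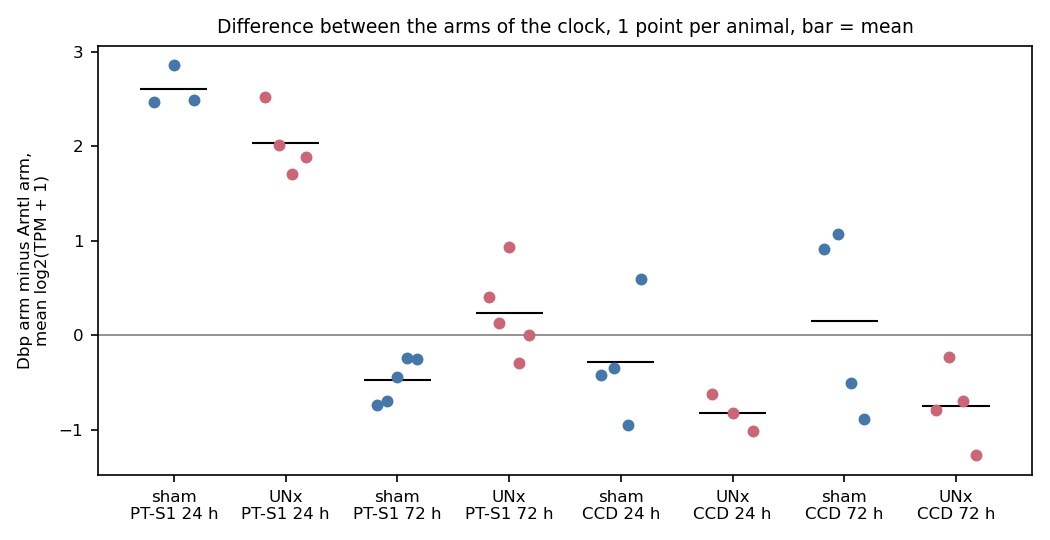
Mean log2(TPM + 1) of the 7 genes of the Dbp side minus that of the 3 genes of the Arntl side, 1 point per animal (blue sham, red UNx), with group means as bars. PT-S1 animals at 24 h lie between 1.71 and 2.86, all other animals between -1.27 and 1.07.

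The same comparison of times among UNx animals, added after the values were seen, had Npas2 higher and Dbp, Per2 and Ciart lower at 72 h without overlap in PT-S1, 4 of 10 genes beside 6.57% of all genes. Dbp differed by -2.21 and Ciart by -2.25. Without the libraries of low correlation Arntl joined (1.46) and Per2 left (-0.91), again 4 of 10, beside 14.2% of all genes. Both shares leave out Npas2, which is 1 of the 4 each time, and Per1, for their low means. In CCD, 4 of 10 did not overlap (Npas2, Per1 and Per2 lower, Per3 higher at 72 h), where 25.4% of all genes did not. Sham and UNx animals of a time share a table, so these values are no independent support for those of the sham animals.

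The main question of the design, UNx against sham, found no clock gene past the threshold in any table (limma, Benjamini-Hochberg adjusted p under 0.05). The same test called 0% of 11874 genes in PT-S1 24 h, 0% of 11886 in PT-S1 72 h, 0.987% of 13775 in CCD 24 h and 0.595% of 13770 in CCD 72 h. At an unadjusted p under 0.05 the clock genes numbered 3 of 8 tested, 3 of 9, 3 of 10 and 2 of 10. Of all genes tested, 2109 of 11874, 2432 of 11886, 2138 of 13775 and 1031 of 13770 were under it. Of the members tested, 7 of 8, 5 of 9, 7 of 10 and 7 of 10 had lower means in UNx. Their median changes were -0.51, -0.40, -0.32 and -0.38, beside -0.19, -0.29, -0.04 and 0.01 for all genes. Whether the members differ from all genes in this was not tested. Npas2 in PT-S1 24 h and Per1 in both PT-S1 tables were under the minimum mean of 1 TPM and were not tested. In PT-S1 the median change of all genes was itself -0.19 at 24 h and -0.29 at 72 h; scaling by median ratios moved it to 0.02 and 0.00028, and changes there are to be read against that shift.

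In PT-S1 at 24 h, Nr1d1 and Dbp were lower in all 4 UNx animals than in all 3 sham animals. Nr1d1, which encodes the REV-ERB-alpha repressor, stood at 48.4, 37.9 and 37.1 TPM in sham and at 22.2, 19.5, 13.5 and 16.2 TPM in UNx animals. The change was -1.11 (SE 0.207, limma adjusted p = 0.228), the 10th smallest p of the table. Dbp stood at 144, 151 and 131 TPM in sham and at 89.955, 68.5, 77.1 and 90.7 TPM in UNx animals; the change was -0.77 (SE 0.158, limma adjusted p = 0.228). With median-ratio scaling the changes were -0.86 and -0.52, and without the libraries of low correlation they were -1.22 and -0.83. Both genes passed when every library counted as a replicate (adjusted p = 0.0334 and 0.046), when the animal was a random effect (0.0276 and 0.0396) and under arrayWeights (0.0141 and 0.0127). These settings called 0.716%, 0.851% and 12% of all genes. Counting every library as a replicate treats libraries of the same animal as independent. With the animal as a random effect single libraries are fitted too, with 1 correlation within animals shared by all genes. Those 2 of 8 genes did not overlap between the groups, beside 14.9% of all genes in this table. The overlapping partner genes were also lower in UNx, Sphk2 at 9.53 ± 1.31 TPM (SD, n = 4) and Thra at 3.62 ± 0.976 TPM (SD, n = 4); their part in the difference was not tested. The summed level of the 4 PT-S1 markers was lower in UNx too, at 6267 to 10414 TPM beside 10742 to 13418 TPM in sham animals of this table, and its part in these differences was not tested.

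The other members overlapped at 24 h in PT-S1. Nr1d2 had a change of -0.62 (SE 0.272), with all 4 UNx animals between 20.7 and 25.2 TPM and sham animals at 31.7 TPM or more in TPM but not on the log2 average of the libraries. On mean TPM 3 of 8 members, Nr1d1, Dbp and Nr1d2, thus did not overlap, beside 21.3% of all genes. Without the libraries of low correlation the Nr1d2 animals did not overlap, and the adjusted p values of Nr1d1, Dbp and Nr1d2 were 0.0793, 0.0817 and 0.0938, while 23.2% of all genes did not overlap. Per2 had a change of -0.52 (SE 0.268, adjusted p = 0.0495 with arrayWeights), with UNx animals at 5.21, 5.495, 9.64 and 5.54 TPM, and Per3 one of -0.50 (SE 0.250), with UNx animals at 3.67, 4.14, 5.57 and 2.48 TPM. The change of Clock was -0.29, or 0.01 with quantile normalization, and that of Ciart -0.06, or 0.17 with median-ratio scaling, so their signs depend on the scaling. Arntl was low in both groups, at 0.65, 1.14, 2.2 and 1.98 TPM in UNx animals; the change was 0.21 (SE 0.289). Without the libraries of low correlation the changes of Per3, Clock, Ciart and Arntl were -0.32, -0.19, -0.26 and 0.33.

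At 72 h in PT-S1 the 3 activators had lower means in UNx, as did Nr1d1 and Nr1d2. Arntl stood at 2.37, 5.07, 2.98, 8.18 and 5.36 TPM in UNx animals beside 6.79 to 11.4 TPM in sham, a change of -0.93 (SE 0.274, limma adjusted p = 0.237). Npas2 stood at 1.3, 1.79, 1.96, 4.45 and 4.51 TPM beside 3.73 to 6.93 TPM, a change of -0.94 (SE 0.294, limma adjusted p = 0.237). In each gene, 1 or more UNx animals lay within the sham range: animal 4 for Arntl, animals 4 and 5 for Npas2. Without its library of low correlation, UNx animal 2 had Arntl at 8.84 TPM, also within the sham range. Clock stood at 5.18, 6.08, 5.78, 5.19 and 6.22 TPM beside 6.46 to 9.66 TPM, a change of -0.40 (SE 0.156, limma adjusted p = 0.237), which is near the median of all genes in this table (-0.29) and was -0.09 with median-ratio scaling. Without the 2 libraries of low correlation these changes were -0.55, -0.59 and -0.12. With arrayWeights Arntl passed the threshold (-0.71, limma adjusted p = 0.0377), a setting that called 11.3% of all genes.

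The direction of the Dbp side in these animals depended on the libraries of low correlation. With all libraries, 4 of its 6 tested genes had higher means in UNx and 2 had lower means. Without the 2 libraries all 6 had higher means, by 0.03 to 0.66, and none passed the threshold. Dbp stood at 16.1, 15.1, 33.5, 10.4 and 16.6 TPM in UNx animals beside 9.02 to 16.02 TPM in sham, a change of 0.49 (SE 0.272), or 0.66 without the libraries of low correlation. With all libraries, UNx animal 3 had the highest Dbp, and also the highest Ciart (3.05 TPM), Per3 (2.95 TPM) and Per2 (4.95 TPM) of its group. Its Per2 rested on 1 library at 8.83 TPM beside 3.42 and 2.59 TPM. Without the libraries of low correlation UNx animal 1 had the highest Per2, at 5.74 TPM. The changes of Per3 (0.21), Ciart (0.32) and Per2 (0.006) were smaller than that of Dbp, and without the 2 libraries they were 0.38, 0.50 and 0.26. Ciart passed with arrayWeights (0.68, limma adjusted p = 0.0399). Nr1d1 and Nr1d2 had changes of -0.62 (SE 0.362) and -0.49 (SE 0.303) with all libraries, and 0.03 (SE 0.206) and 0.22 (SE 0.178) without the 2 libraries of low correlation, so their direction rests on those 2 libraries. On the log2 average of the libraries 0 of 9 clock genes did not overlap, beside 5.56% of all genes. On mean TPM 1 of 9 did not, Clock, beside 5.58%. The gap of Clock rested on the 2 libraries of low correlation. Without them UNx animals 1 and 2 had Clock at 7.43 and 9.78 TPM, above the lowest sham animal at 6.46 TPM.

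**Figure D4:**
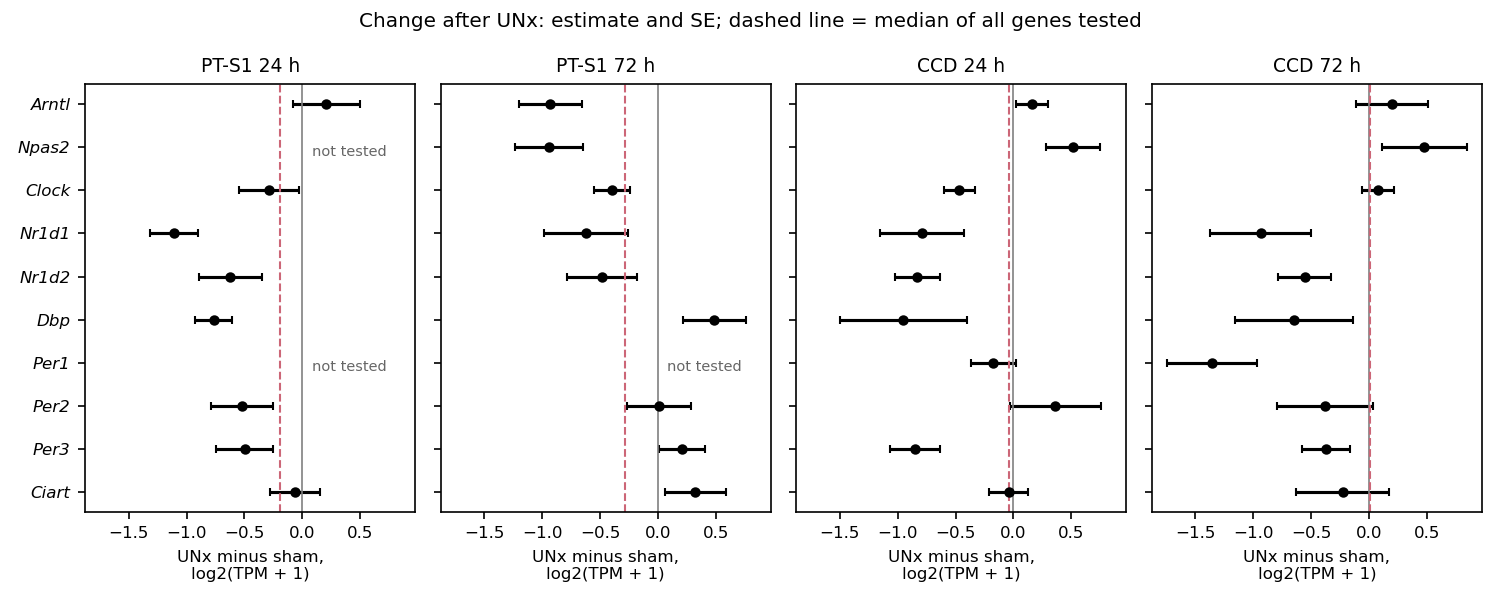
Change of each clock gene after UNx on the log2(TPM + 1) scale in the 4 tables (points, UNx minus sham; bars, SE), with the median change of all genes tested as a dashed line. Nr1d1 lies at -1.11 in PT-S1 24 h and Per1 at -1.36 in CCD 72 h, and no gene passed the adjusted threshold.

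In CCD at 24 h, Nr1d2, Per3 and Clock were lower in all 3 UNx animals than in all 4 sham animals. Nr1d2 stood at 41.1, 38.9, 31.1 and 59.7 TPM in sham and at 21.3, 26.2 and 22.4 TPM in UNx animals; the change was -0.83 (SE 0.193, limma adjusted p = 0.0832). Per3 stood at 2.9, 3.03, 3.0 and 5.57 TPM in sham and at 1.28, 1.58 and 1.68 TPM in UNx animals; the change was -0.85 (SE 0.215, limma adjusted p = 0.105). Clock stood at 21.7, 24.3, 21.6 and 19.6 TPM in sham and at 13.4, 15.2 and 19.0 TPM in UNx animals; the change was -0.47 (SE 0.135, limma adjusted p = 0.145). These 3 of 10 genes compare with 15.1% of all genes without overlap in this table. Nr1d2 and Per3 passed with every library as a replicate (adjusted p = 0.00252 and 0.00396) and when the animal was a random effect (0.011 and 0.0132); with every library Npas2, Nr1d1 and Dbp passed as well (0.0272, 0.021 and 0.0398). These settings called 7.46% and 3.47% of all genes. With every library as a replicate, libraries of the same animal are treated as independent. The random effect uses 1 correlation within animals for all genes.

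Dbp and Nr1d1 had wide sham groups here. Dbp was at 11.5, 11.3 and 8.86 TPM in UNx animals, within the sham range of 6.39 to 56.7 TPM (change -0.95, SE 0.548), and Nr1d1 was at 63.2, 46.9 and 40.9 TPM beside 42.7 to 149 TPM in sham (change -0.79, SE 0.363). For both genes the overlap came from sham animal 3 alone, which had 1 library, with Dbp at 6.39 TPM and Nr1d1 at 42.7 TPM. Sham animals 1, 2 and 4 lay above all UNx animals, with Dbp at 24.4, 18.5 and 56.7 TPM. Their Nr1d1 stood at 111, 73.9 and 149 TPM. Npas2 had a change of 0.51 (SE 0.233), with 9.69, 9.36 and 13.2 TPM in UNx animals. The changes of Arntl (0.16, SE 0.139), Per1 (-0.18, SE 0.194), Per2 (0.36, SE 0.392) and Ciart (-0.04, SE 0.166, or 0.01 with median-ratio scaling) were closer to 0. The summed level of the principal cell markers was 14759 to 41671 TPM in sham and 38099 to 57904 TPM in UNx animals of this table, and that of the thick ascending limb markers Umod and Slc12a1 reached 3429 TPM in sham animal 2, against at most 198 TPM in UNx; their part in these changes was not tested. Without sham animal 2 the changes of Nr1d2, Per3 and Clock were -0.86, -0.91 and -0.42.

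In CCD at 72 h, Per1 had the widest change, -1.36 (SE 0.389, limma adjusted p = 0.285). It stood at 3.65, 15.2, 14.4 and 7.72 TPM in sham and at 3.02, 4.29, 1.72 and 3.02 TPM in UNx animals. Only UNx animal 2 lay within the sham range, just above sham animal 1, and without sham animal 1 Per1 passed the threshold (-1.73, limma adjusted p = 0.0477), as it did with arrayWeights (0.0499); these settings called 0.471% and 0.879% of all genes. Nr1d1 had a change of -0.94 (SE 0.434), with 65.4, 164, 59.4 and 27.7 TPM in UNx animals beside 95.7 to 166 TPM in sham, so that 1 UNx animal reached the top of the sham range. The changes of Nr1d2 and Dbp were -0.55 (SE 0.229) and -0.65 (SE 0.508), and those of Per2, Per3 and Ciart were -0.38, -0.37 and -0.23, the last being 0.17 with arrayWeights. The activators Npas2 (0.48), Arntl (0.20, or -0.15 with arrayWeights) and Clock (0.07, or -0.05 with arrayWeights) had SEs of 0.367, 0.309 and 0.139. Without the 1 library of low correlation the changes of Nr1d2, Per2 and Ciart were -0.84, -0.63 and -0.35, and those of Arntl and Clock 0.04 and -0.12. Here 0 of 10 clock genes did not overlap, beside 4.77% of all genes.

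**Figure D5:**
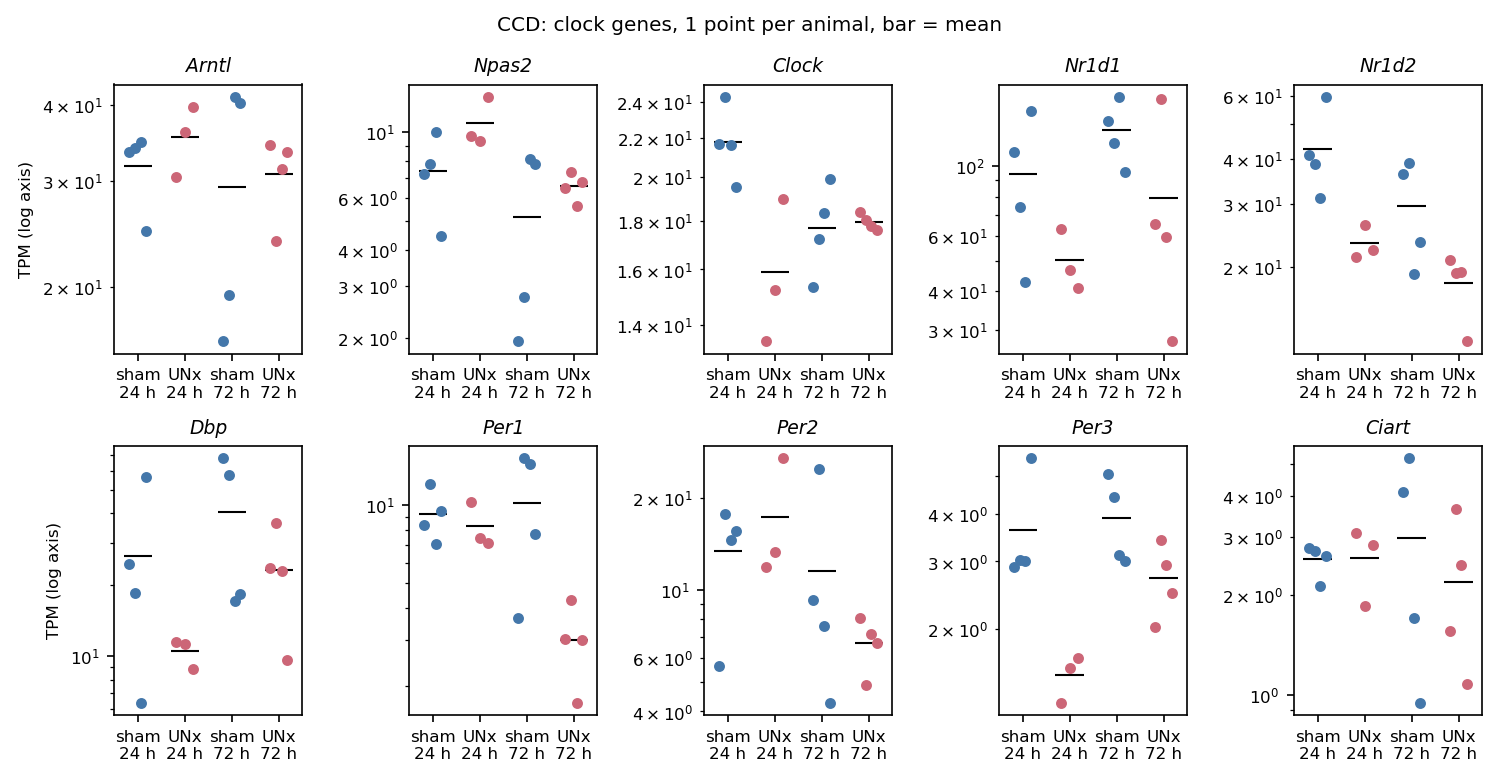
TPM of the 10 clock genes in CCD on log axes, 1 point per animal (blue sham, red UNx), with the mean of each group as a bar. At 24 h the UNx animals lie below all sham animals for Clock, Nr1d2 and Per3, and at 72 h sham animals 1 and 2 lie apart from sham animals 3 and 4 for Arntl, Npas2 and Dbp.

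Whether the UNx change differed between times or segments was tested as the difference of both effects in 1 limma model. No clock gene passed in PT-S1 between the times (8 tested, 0% of 11455 genes called), in CCD between the times (10 tested, 0% of 13253), between the segments at 24 h (8 tested, 0.137% of 10988) or between the segments at 72 h (9 tested, 0% of 11035). In PT-S1 the Dbp effect was 1.25 higher at 72 h than at 24 h (SE 0.364, limma adjusted p = 0.998), since its UNx mean was below sham at 24 h and above it at 72 h. The Arntl effect was 1.13 lower (difference -1.13, SE 0.419) and that of Per3 0.71 higher (SE 0.318). Without the 4 PT-S1 libraries of low correlation, Dbp (1.49, SE 0.355, limma adjusted p = 0.0446) and Nr1d1 (1.25, SE 0.303, limma adjusted p = 0.0479) passed, beside 1.63% of 11443 genes, and with arrayWeights Dbp passed (1.52, limma adjusted p = 0.0248), beside 3.28% of all genes.

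Between the segments at 72 h, the effects on Npas2 (1.42, SE 0.489), Arntl (1.13, SE 0.438) and Clock (0.47, SE 0.204) were higher in CCD than in PT-S1, and that on Per3 lower (-0.58, SE 0.283), each by over 2 SE but with a limma adjusted p of 0.495. The value for Clock was -0.003 without the libraries of low correlation and 0.15 with median-ratio scaling of all libraries, so it depends on those libraries and on the scaling. Without the libraries of low correlation the values for Npas2 and Arntl were 0.94 and 0.59, and that for Per3 was -0.87. These tests treat the samples of both segments as independent animals. In CCD between the times, the effect on Clock was higher at 72 h (0.54, SE 0.195, or 0.35 without the library of low correlation) and that on Per1 lower (-1.18, SE 0.488), both with a limma adjusted p of 0.968.

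Of 16 other genes of the clock machinery, none passed for UNx against sham in any table (13, 14, 14 and 13 tested). In PT-S1 24 h, Tef and Cry2, a D-box activator and a repressor of the activating pair, had changes of -0.71 (SE 0.223) and -0.64 (SE 0.210). In PT-S1 72 h the smallest p belonged to Nfil3 (-1.01, SE 0.315), a D-box repressor, Arntl2 (-0.49, SE 0.163) and Csnk1e (-0.66, SE 0.245), a kinase of Per proteins. In CCD, Bhlhe40 (-0.58) and Csnk1d (0.32) were among those with the smallest p at 24 h, and at 72 h they were Rora (-0.42), Bhlhe40 (-1.13) and Csnk1e (-0.42). The list's medians were -0.30, -0.47, -0.10 and -0.29, beside -0.19, -0.29, -0.04 and 0.01 for all genes.

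Between sham PT-S1 animals at 24 h and 72 h, 6 of 13 ranked genes of this machinery list did not overlap, beside 13.9% of all genes. The D-box activators Tef (123 ± 45.5 TPM, SD, n = 3, against 41.4 ± 9.14 TPM, SD, n = 5) and Hlf (46.8 ± 15.2 against 17.4 ± 4.35 TPM) were lower at 72 h, as Dbp was. Nfil3, which competes with them for the D-box, was higher, 2.23 ± 0.750 against 9.55 ± 2.85 TPM. Bhlhe40 (50.2 ± 2.02 against 14.0 ± 6.81 TPM), Cry2 (23.9 ± 8.95 against 8.54 ± 1.36 TPM) and Fbxl21 (5.82 ± 0.362 against 4.14 ± 1.11 TPM) were lower. The list's median difference was -0.39, beside -0.07 for all genes.

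Of 10 genes known as clock outputs, 5 were ranked in sham PT-S1, and 3 of them, Wee1, Nampt and Coq10b, were lower at 72 h without overlap, beside 13.9% of all genes. Wee1, a cell cycle kinase with E-boxes, averaged 14.6 ± 6.01 TPM at 24 h and 3.57 ± 0.470 TPM at 72 h. In CCD 0 of 8 were apart, beside 12.2%. None passed for UNx against sham in any table. Of 8 genes that respond to glucocorticoids, the adrenal hormones that follow a daily rhythm and rise with surgery, 0 of 7 were apart between the sham animals of PT-S1 (13.9% of all genes), and 3 of 8 were lower at 72 h in CCD (12.2% of all genes apart): Sgk1 (836 ± 268 against 279 ± 88.8 TPM), Pdk4 (99.2 ± 43.8 against 33.1 ± 10.9 TPM) and Zbtb16 (22.7 ± 4.39 against 11.7 ± 3.05 TPM). Zbtb16 was also the only gene of these 3 lists to pass for UNx against sham, lower in CCD 24 h, 9.61 ± 2.30 TPM in UNx (change -1.17, SE 0.186, limma adjusted p = 0.0320).

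By likeness over the 32 samples, as deviations from group means, the genes most correlated with the Dbp side minus the Arntl side were Cyba, Cfb, H1f2, BC024386 and Nthl1, with Pearson correlations of 0.64 to 0.56, of 9856 genes compared. Those most opposed were Amt, Emx1, Mitf, Chic1 and Cdc27, with -0.70 to -0.62. In CCD 72 h, where the sham animals differed most, all 10 had correlations of at least 0.67 in size, while in PT-S1 72 h 8 of the 10 were at 0.33 or less in size. These are the extremes of many genes in animals that share tables, and no p is given.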

How the data were processed

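The authors deposited 4 tables of TPM values per gene and library, 1 for each segment and time, aligned to GRCm39 with STAR and quantified with RSEM 1.3.3, per the submitters' processing notes; the annotation release is not given in the sources used here. Per the labels' protocols, RNA came from a Zymo kit and cDNA from the SMART-Seq V4 kit. All 69 columns were used, 47 matched to 1 sample and 22 to a group and animal, since library numbers differed between column and title. The number after Sham or UNx was read as the animal, and whether both segments came from the same animals is not stated.

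Libraries of an animal were averaged as log2(TPM + 1), and genes with a mean of at least 1 TPM were tested with limma 3.58.1 (R 4.3.3; two-sided, moderated with a trend, Benjamini-Hochberg over all genes, threshold 0.05). The tables, which list 55487 genes at 24 h and 53700 at 72 h, were treated as normalized separately, so sham animals of 2 times were compared by difference and overlap alone. The code was tested on simulated data. The members, the lists and the naming rule (all members, and for the 16 further clock genes those past the threshold or else the 3 with the smallest p) were chosen with earlier results of these data known. The values of 1 gene that the rule names are not reported here. Same-numbered sham and UNx animals had correlated deviations from -0.37 to 0.33 and were not treated as pairs. Changed one at a time were the pseudocount, the filter, the averaging, the scaling, weights, a block and each animal. The setting with every library as a replicate treats libraries of the same animal as independent, although the animal is the replicate.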

Additional observations from a re-analysis of the deposited data

Results flagged for a closer look

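In 60 groups of 4 or 5 animals, the highest or the lowest animal was tested for a gap to the others by Dixon's criterion, which chance meets in about 1 group in 20. It was met 6 times, always within a group of 1 table.

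Per2 in PT-S1 24 h reached 9.64 TPM in UNx animal 3, with the other UNx animals at 5.21 to 5.54 TPM. In PT-S1 72 h, sham animal 3 stood apart for both Per genes that respond to acute signals: Per1 was at 2.42 TPM beside 0.17 to 0.46 TPM, and Per2 at 4.975 TPM beside 1.49 to 2.16 TPM. In CCD 24 h, sham animal 4 had Arntl at 24.8 TPM, below the 33.5 to 34.7 TPM of the others, and Per3 at 5.57 TPM, above their 2.9 to 3.03 TPM. In CCD 72 h, UNx animal 4 had Nr1d2 at 12.4 TPM beside 19.3 to 20.97 TPM.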

How the results depend on the processing

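The depth is unknown, so no counting error could be set beside low genes such as Per1 and Npas2 in PT-S1. Counts past the threshold changed with the setting, both for all genes and for the clock genes. In PT-S1 24 h the 0 genes became 2 with no filter, 85 (2 clock genes) with every library as a replicate, 101 (2) with the animal as a random effect (correlation rounded to 2 decimals), 1 with median-ratio scaling, 1426 (3) with arrayWeights, 1 without the libraries of low correlation and 81 with the replicate block; leaving out an animal gave 0 to 8. In PT-S1 72 h the 0 genes became 18, 13 and 1346 (2 clock genes) with every library, the random effect and arrayWeights, and 1 without the libraries of low correlation. In CCD 24 h the 136 genes became 1 with no filter, 1027 (5 clock genes) with every library, 478 (2) with the random effect and 0 with the replicate block, and 7 to 78 without an animal. In CCD 72 h the 82 genes became 39 at a minimum of 5 TPM, 7 with no filter, 150 with every library, 129 without the library of low correlation and 3 with the replicate block, and 8 to 73 without an animal; 1 clock gene passed with arrayWeights, and 0 to 1 without an animal. The replicate block, with numbers that do not pair the animals, changed no member call, with adjusted p for Nr1d1 of 0.0665 in PT-S1 24 h. The members whose UNx effect differed between times in PT-S1 became 1 with arrayWeights and 2 without the libraries of low correlation. The members apart between sham times in CCD were 0 to 1 without an animal. For differences of effects under 2 SE, single values under other settings are not reported here.

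Signs turned for small changes. In PT-S1 24 h, Ciart was 0.17 and 0.19 and Clock 0.014 under median-ratio scaling (Ciart) and quantile normalization (both); without an animal, Ciart ran from -0.19 to 0.045 and Arntl from -0.029 to 0.38. In PT-S1 72 h, Per2 was -0.080 at a pseudocount of 0.1 and -0.19 to 0.22 without an animal, and without the libraries of low correlation Nr1d1 was 0.025 and Nr1d2 0.22. In CCD 24 h, Ciart was 0.00997 and 0.059 under median-ratio scaling and quantile normalization, and -0.14 to 0.079 without an animal. In CCD 72 h, Arntl, Clock and Ciart were -0.15, -0.055 and 0.17 with arrayWeights, and Clock -0.12 without the library of low correlation; without an animal, Arntl ran from -0.065 to 0.41, Clock from -0.039 to 0.15, Per2 from -0.69 to 0.077 and Ciart from -0.53 to 0.042. The difference of Clock between segments at 72 h was -0.00348 without the libraries of low correlation. The cause was not tested.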
